A study of Gallus gallus with 16 samples.

Results

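The genes described here are the antioxidant and xenobiotic metabolism enzymes of the chicken embryo: every gene whose symbol in the authors' deposited tables begins with the family name of a superoxide dismutase, catalase, glutathione peroxidase, peroxiredoxin, thioredoxin or thioredoxin-like protein, glutamate-cysteine ligase, heme oxygenase or quinone reductase, or of a cytochrome P450 of families CYP1 to CYP4, aldehyde oxidase, glutathione transferase or sulfotransferase. Flavin monooxygenases, epoxide hydrolases, UDP-glucuronosyltransferases and sulfiredoxin were also searched for and matched no row, and family CYP3 had none either. Within the matched families, no row carried the symbol NQO1, GCLM, TXN, GPX1 or GPX4, or a TXNRD or CYP1A symbol. Those genes are not covered here. The search found 37 genes among 21357 rows, 9225 of them with a symbol. By family, 22 were placed among the antioxidant enzymes and 15 among the xenobiotic enzymes.

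RNA was sequenced from 16 wild type domestic chicken embryos, 1 library each, in 4 groups of 4. These were nicotine at day 7, vehicle at day 7, nicotine at day 5 and vehicle at day 5 of incubation. Nicotine hydrogen bitartrate, dosed at 30 ng/ml by the weight of the egg, or sodium bitartrate as vehicle, was injected in Ringer's solution through the blunt end of the egg before incubation began. All 16 eggs were thus injected, and each sample was a dissected piece around the spinal cord at the level of the lower neck and forelimb. In such bulk tissue, fewer cells of a type and less RNA per cell cannot be told apart. The nicotine level that reached the embryo is not given in the sources used here.

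As background, cells turn superoxide into hydrogen peroxide with superoxide dismutases and remove the peroxide with catalase, glutathione peroxidases and peroxiredoxins. The peroxidases draw their electrons from glutathione and thioredoxin, and in vertebrates the factor NRF2, held in check by KEAP1, switches on many of these genes under oxidative stress. Foreign compounds are oxidised by cytochrome P450 enzymes, flavin monooxygenases and aldehyde oxidase, and then joined to glutathione, sulfate or glucuronic acid. In humans, nicotine is oxidised to cotinine by CYP2A6 together with aldehyde oxidase.

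The deposited tables give a log2 fold change, a p and an adjusted p for each gene in each of 5 comparisons, with no expression level and no standard error. A gene is called here where the authors' adjusted p is under 0.05. Intervals are 95% intervals computed from the authors' p read as a two-sided normal test of the log2 fold change. Values per library can be given for only 4 of the 37 genes, those whose identifier also labels a row of the deposited count matrix: CYP4V2, CYP4F22, SULT1C3 and MGST2. Library totals ran from 21801247 to 29002315 counts. One library in each group (replicate 2 of nicotine at day 7, vehicle at day 7 and vehicle at day 5, and replicate 4 of nicotine at day 5) had under 0.05 CPM (counts scaled to library size) of 57 loci that reached at least 0.5 CPM in all 12 others. Of 13 fixed neural markers 7 were listed, and the 1 among them with a matrix row, CHAT of cholinergic neurons, was detected in every library. It ran from 1.49 to 2.73 CPM in nicotine and 0.781 to 2.215 in vehicle embryos at day 7. At day 5 it ran from 0.757 to 2.01 CPM in nicotine and 2.46 to 3.30 in vehicle embryos. Every nicotine library of day 5 thus lay below every vehicle library of that day, though no neural marker was called lower with nicotine.

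Nicotine against vehicle was the comparison the series was built for, and no enzyme gene of either class was called at day 7 or at day 5. At day 7 the authors' deposited table called 0 of 22 antioxidant and 0 of 15 xenobiotic genes, where 0.395% of all rows with an adjusted p were called. At day 5 the authors' deposited table called 0 of 21 antioxidant and 0 of 8 xenobiotic genes that had an adjusted p, where 2.72% of all such rows were called. With calls this rare among all rows, a count of 0 among 37 genes at day 7 and among 29 at day 5 is near the background. The median log2 fold change at day 7 was 0.02 for the antioxidant and 0.03 for the xenobiotic genes in the authors' deposited table, beside 0.01 for all rows. At day 5 these medians were -0.01 and -0.11 in the authors' deposited table, beside -0.0006 for all rows. Over rows with an adjusted p alone, the day 5 medians were -0.02 for antioxidant and -0.09 for xenobiotic genes, beside -0.01 for all such rows.

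The antioxidant genes were measured closely enough to bound most nicotine effects. In the authors' deposited tables the whole interval lay within 0.5 of 0 on the log2 scale for 19 of the 22 antioxidant genes at day 7 and for 17 of 22 at day 5. For the xenobiotic genes this held for only 4 of 15 at day 7 and 6 of 15 at day 5, so most intervals in that class also hold differences of 0.5 or more. The implied standard error at day 5 had a median of 0.115 among antioxidant and 0.257 among xenobiotic genes.

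**Figure D1:**
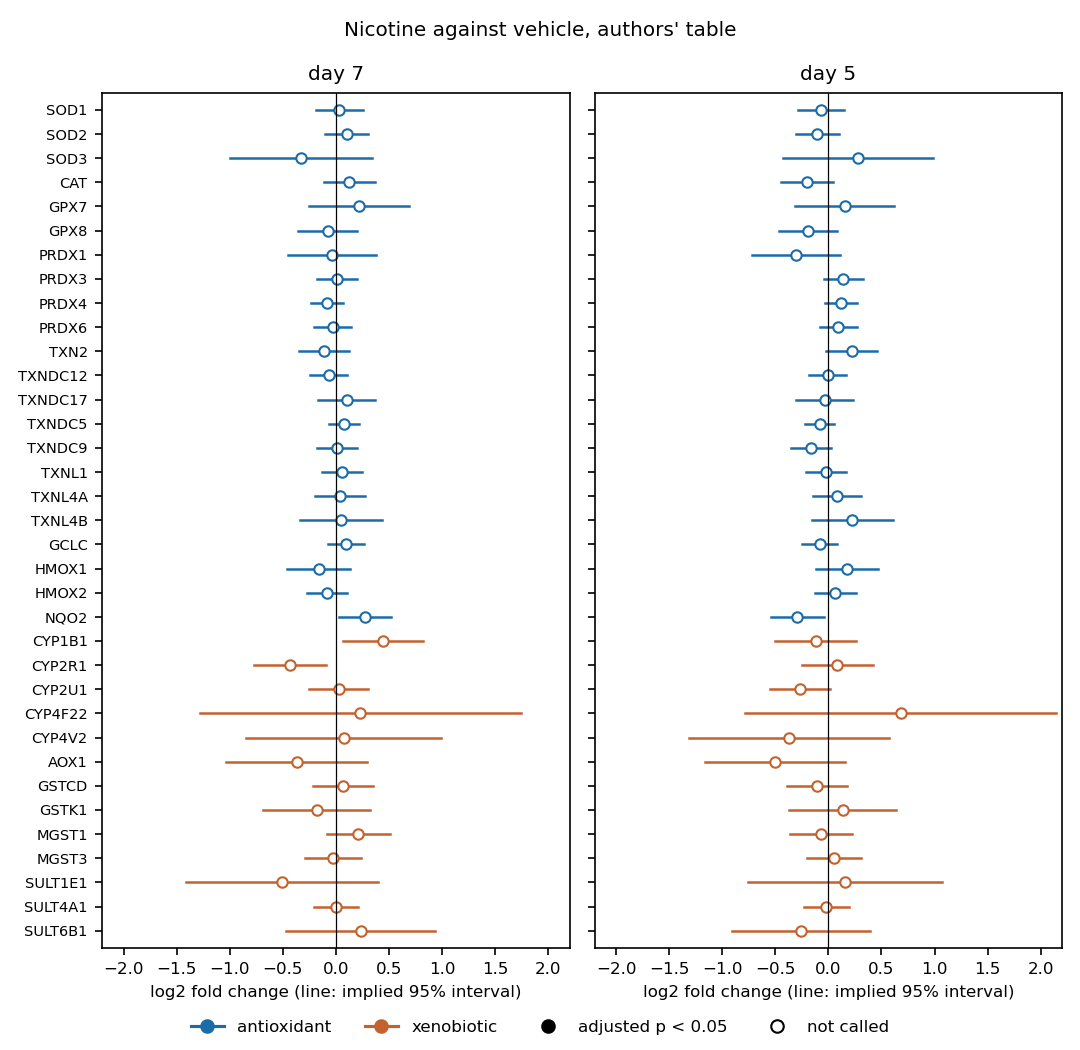
Authors' log2 fold change of nicotine against vehicle at day 7 (left) and day 5 (right) for 35 enzyme genes; points are the deposited values and lines the intervals computed from the authors' p. SULT1C3 and MGST2 are left out because their intervals are far wider than the axis. Points lie around 0 on both days, and the intervals of the antioxidant genes are mostly shorter than those of the xenobiotic genes.

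Among antioxidant genes, NQO2, a quinone reductase that uses dihydronicotinamide riboside as its electron donor, had the smallest p on both days, with opposite signs. Its log2 fold change with nicotine was 0.27 at day 7 (interval 0.03 to 0.52, p = 0.0306, adjusted p = 0.839) in the authors' deposited table. At day 5 it was -0.29 (interval -0.54 to -0.04, p = 0.0214, adjusted p = 0.159) in the authors' deposited table. Neither passed the threshold, and NQO2 was the only one of the 37 genes with an unadjusted p under 0.05 at day 5, where 14.6% of all rows were under it.

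Over all 22 antioxidant genes the log2 fold changes ran from -0.33 to 0.27 at day 7 and from -0.31 to 0.28 at day 5 in the authors' deposited tables. For superoxide breakdown, mitochondrial SOD2 had 0.10 at day 7 (interval -0.10 to 0.30) and -0.11 at day 5 (interval -0.31 to 0.10) in the authors' deposited tables. CAT, the peroxisomal catalase, had 0.13 at day 7 (interval -0.12 to 0.37) and -0.20 at day 5 (interval -0.45 to 0.04) in the authors' deposited tables. GCLC, the catalytic subunit of the rate-limiting enzyme of glutathione synthesis, had 0.09 at day 7 (interval -0.07 to 0.26) and -0.08 at day 5 (interval -0.25 to 0.08) in the authors' deposited tables. HMOX1, the stress-inducible heme oxygenase and a textbook NRF2 target, had -0.16 at day 7 (interval -0.46 to 0.13) and 0.17 at day 5 (interval -0.12 to 0.47) in the authors' deposited tables. Each of these intervals holds 0 and none reaches 0.5 in either direction.

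The same held for most of the peroxidase and thioredoxin genes. PRDX1 had -0.04 at day 7 (interval -0.45 to 0.37) and -0.31 at day 5 (interval -0.72 to 0.11) in the authors' deposited tables, the lowest value of the class at day 5. Its interval at day 5 passes 0.5 in size, as does that of TXNL4B (0.23, interval -0.16 to 0.61). PRDX4, the peroxiredoxin of the endoplasmic reticulum, had -0.08 at day 7 (interval -0.23 to 0.07) and 0.12 at day 5 (interval -0.03 to 0.27) in the authors' deposited tables. TXN2, the mitochondrial thioredoxin, had -0.11 at day 7 (interval -0.35 to 0.12) and 0.22 at day 5 (interval -0.02 to 0.46) in the authors' deposited tables. For the peroxidases of the endoplasmic reticulum, GPX7 had 0.21 at day 7 and GPX8 had -0.19 at day 5 (intervals -0.26 to 0.68 and -0.47 to 0.08) in the authors' deposited tables. Among the 7 thioredoxin-like genes the values ran from -0.07 to 0.10 at day 7 and from -0.17 to 0.23 at day 5 in the authors' deposited tables. The smallest p in that family belonged to TXNDC5, an endoplasmic reticulum disulfide isomerase, at day 7 (0.07, p = 0.302) and to TXNDC9 at day 5 (-0.17, p = 0.0819) in the authors' deposited tables. The least precise gene of this class was SOD3, the secreted superoxide dismutase, at -0.33 at day 7 (interval -0.99 to 0.34) and 0.28 at day 5 (interval -0.43 to 0.99) in the authors' deposited tables.

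Among the xenobiotic genes, 2 cytochromes P450 had an unadjusted p under 0.05 at day 7. CYP1B1, a target of the aryl hydrocarbon receptor that also acts on estrogens and retinoids, had a log2 fold change of 0.44 at day 7 (interval 0.07 to 0.82, p = 0.0215, adjusted p = 0.737) and of -0.12 at day 5 (interval -0.50 to 0.26, adjusted p = 0.736) in the authors' deposited tables. CYP2R1, the vitamin D 25-hydroxylase, had -0.44 at day 7 (interval -0.77 to -0.10, p = 0.0116, adjusted p = 0.619) and 0.08 at day 5 (interval -0.25 to 0.42, no adjusted p) in the authors' deposited tables. With NQO2 and SULT1C3 these made 4 of 37 genes at day 7, where 5.33% of all rows had such a p, and none of the 4 passed the adjusted threshold. CYP2U1, a fatty acid hydroxylase, had 0.03 at day 7 (interval -0.26 to 0.31) and -0.27 at day 5 (interval -0.55 to 0.01, adjusted p = 0.252) in the authors' deposited tables.

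AOX1, the aldehyde oxidase whose human counterpart takes part in cotinine formation, was below 0 on both days without passing. It had -0.37 at day 7 (interval -1.03 to 0.30, adjusted p = 0.9996) and -0.51 at day 5 (interval -1.17 to 0.15, adjusted p = 0.363) in the authors' deposited tables. These intervals leave room for a fall of over 1 on the log2 scale as well as for no change. Among the conjugating enzymes, GSTK1 had -0.18 at day 7 (interval -0.68 to 0.32) and GSTCD -0.11 at day 5 (interval -0.39 to 0.18) in the authors' deposited tables. MGST1, a membrane-bound glutathione transferase, had 0.21 at day 7 (interval -0.09 to 0.50) and -0.07 at day 5 (interval -0.36 to 0.22) in the authors' deposited tables. SULT1E1, the estrogen sulfotransferase, had -0.51 at day 7 (interval -1.41 to 0.40) and 0.16 at day 5 (interval -0.76 to 1.07) in the authors' deposited tables.

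Whether the effect of nicotine differed between the days was tested in a table of its own. The authors' deposited table of that difference called 0 of 21 antioxidant and 0 of 10 xenobiotic genes with an adjusted p, where 2.25% of all such rows were called. Among genes with an adjusted p, NQO2 came nearest, with a nicotine effect 0.56 higher on the log2 scale at day 7 than at day 5 (interval 0.21 to 0.91, p = 0.0016, adjusted p = 0.0602) in the authors' deposited table. CYP2R1 had -0.52 (interval -0.99 to -0.04, adjusted p = 0.22) and CYP1B1 0.56 (interval 0.03 to 1.10, adjusted p = 0.233) in the authors' deposited table. SULT1C3 had 6.20 (p = 0.00245) in the authors' deposited table, with no adjusted p and with the few counts described at the end. The sign of the nicotine effect was opposite on the 2 days for 26 of the 37 genes in the authors' deposited tables (70.3%), 15 antioxidant and 11 xenobiotic, beside 59.3% of all rows. The tables for the 2 days share no libraries.

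Between day 5 and day 7, most antioxidant genes changed, and nearly all that did were lower at day 7. In nicotine embryos, 14 of 22 antioxidant genes fell at day 7 relative to day 5 and 0 rose in the authors' deposited table (63.6% lower), where 15.3% of all rows with an adjusted p fell and 15.9% rose. In vehicle embryos, 14 of 22 fell and 1 rose in the authors' deposited table (63.6% lower), where 18.7% of all rows fell and 18.1% rose. Their median log2 fold change was -0.38 in nicotine embryos and -0.35 in vehicle embryos in the authors' deposited tables, beside 0.01 and 0.04 for all rows. Without the thioredoxin-like genes, not all of which are antioxidants, these medians were -0.30 and -0.28. Signs below 0 were seen in 20 of 22 genes in nicotine embryos and 19 of 22 in vehicle embryos.

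The xenobiotic genes had fewer calls than the antioxidant genes, at a share near that of all rows, and in nicotine embryos in both directions. In nicotine embryos 3 of 15 fell (20.0%) and 2 rose in the authors' deposited table, where 15.3% of all rows fell and 15.9% rose. The class had a median log2 fold change of -0.28. That median turned to 0.20 when NQO2 was counted as xenobiotic and the glutathione transferases as antioxidant, so its direction depends on where the class border is drawn. In vehicle embryos 5 of 15 fell (33.3%) and 0 rose in the authors' deposited table, where 18.7% of all rows fell and 18.1% rose. The class median there was -0.10. In each treatment 33.3% of the class was called in either direction, near the share of all rows. Of all 37 genes, 19 were called in nicotine embryos (51.4%) and 20 in vehicle embryos (54.1%) in the authors' deposited tables, where 31.1% and 36.8% of all rows were called in either direction. The gap between the classes was not tested, and the wider intervals of the xenobiotic genes allow fewer calls at a given size of change.

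**Figure D2:**
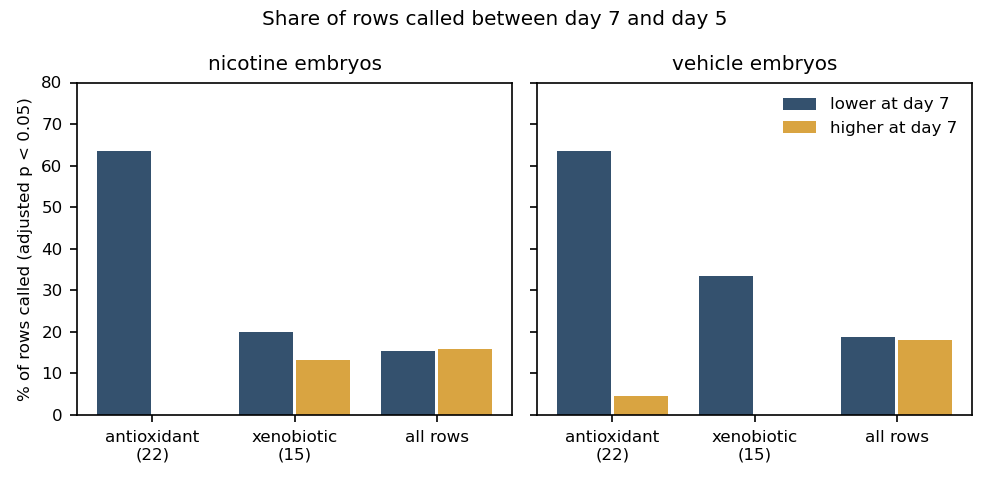
Percent of genes with an adjusted p that were called lower or higher at day 7 than at day 5 in the authors' deposited tables, for nicotine embryos (left) and vehicle embryos (right). Bars stand for the 22 antioxidant genes, the 15 xenobiotic genes and all rows. The antioxidant bar for lower genes stands at 63.6% in both panels, above 15.3% (nicotine) and 18.7% (vehicle) of all rows.

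Most antioxidant genes that fell did so in both treatments, which share no libraries. The median implied standard error of the antioxidant genes was 0.1157 in both tables. The spread may thus have been estimated over all libraries together, which would link the calls of the 2 tables. Of the 14 that fell in nicotine embryos and the 14 that fell in vehicle embryos, 12 were shared, 85.7% of each set in the authors' deposited tables. Over all rows, the shared falls were 74.1% of those in nicotine embryos and 58.0% of those in vehicle embryos in the authors' deposited tables, so much of this overlap is also seen in the background. The 12 were SOD1, SOD2, PRDX1, PRDX3, GPX8, GCLC, HMOX2, TXNL1, TXNL4A, TXNDC9, TXNDC12 and TXNDC17.

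Both intracellular superoxide dismutases fell. SOD1, the cytosolic copper-zinc enzyme, fell by 0.56 on the log2 scale in nicotine embryos (interval -0.78 to -0.34, adjusted p = 1.02e-05) and fell by 0.66 in vehicle embryos (interval -0.88 to -0.44, adjusted p = 6.75e-08) in the authors' deposited tables. SOD2, the mitochondrial manganese enzyme, fell by 0.45 in nicotine embryos (interval -0.66 to -0.25, adjusted p = 0.000108) and fell by 0.66 in vehicle embryos (interval -0.86 to -0.46, adjusted p = 4.17e-09) in the authors' deposited tables. SOD3, which is secreted into the extracellular matrix, had values above 0. It stood at 0.26 in nicotine embryos (interval -0.42 to 0.95, adjusted p = 0.636) and rose by 0.87 in vehicle embryos (interval 0.18 to 1.56, adjusted p = 0.0391) in the authors' deposited tables. It was the only antioxidant gene called higher in either treatment.

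Of the enzymes that remove hydrogen peroxide, PRDX1, PRDX3 and GPX8 fell in both treatments. PRDX1, the cytosolic peroxiredoxin that is reduced by thioredoxin, had the largest fall of the antioxidant class in both tables and fell by 0.76 in nicotine embryos (interval -1.18 to -0.35, adjusted p = 0.00173) and fell by 1.03 in vehicle embryos (interval -1.44 to -0.62, adjusted p = 8.05e-06) in the authors' deposited tables. PRDX3, its mitochondrial relative, fell by 0.47 in nicotine embryos (adjusted p = 8.03e-06) and fell by 0.34 in vehicle embryos (adjusted p = 0.00137) in the authors' deposited tables. PRDX4 fell by 0.30 in nicotine embryos (adjusted p = 0.000611) and had -0.10 in vehicle embryos (adjusted p = 0.349) in the authors' deposited tables. PRDX6, which works with glutathione in place of thioredoxin, had -0.06 in nicotine embryos (interval -0.23 to 0.12) and 0.07 in vehicle embryos (interval -0.11 to 0.24) in the authors' deposited tables, so changes of 0.5 lay outside both of its intervals. GPX8 fell by 0.36 in nicotine embryos (adjusted p = 0.0392) and fell by 0.48 in vehicle embryos (adjusted p = 0.00303) in the authors' deposited tables. The related GPX7 had -0.09 in nicotine and -0.16 in vehicle embryos in the authors' deposited tables and was called in neither. CAT had -0.03 in nicotine embryos (interval -0.27 to 0.21, adjusted p = 0.904) and fell by 0.36 in vehicle embryos (interval -0.60 to -0.12, adjusted p = 0.0127) in the authors' deposited tables. The difference between the treatments was 0.33 for CAT (p = 0.0592, adjusted p = 0.278) and -0.20 for PRDX4 (p = 0.0592, adjusted p = 0.278) in the authors' deposited table. Neither passed.

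Thioredoxin-like genes made up the largest block of falls, 5 of 7 in nicotine embryos and 6 of 7 in vehicle embryos. TXNL1, a thioredoxin-like protein bound to the proteasome, had the smallest p of all 37 genes in both tables and fell by 0.63 in nicotine embryos (interval -0.82 to -0.44, adjusted p = 3.17e-09) and fell by 0.71 in vehicle embryos (interval -0.90 to -0.52, adjusted p = 1.16e-11) in the authors' deposited tables. TXNDC17, a cytosolic disulfide reductase, fell by 0.61 in nicotine embryos (adjusted p = 6.71e-05) and fell by 0.75 in vehicle embryos (adjusted p = 4.41e-07) in the authors' deposited tables. TXNDC12 of the endoplasmic reticulum fell by 0.49 in nicotine embryos (adjusted p = 9.32e-07) and fell by 0.43 in vehicle embryos (adjusted p = 1.50e-05) in the authors' deposited tables.

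Not every protein in this block is an antioxidant. TXNL4A carries a thioredoxin fold but is a core part of the spliceosome, and it fell by 0.55 in nicotine embryos (adjusted p = 3.50e-05) and fell by 0.51 in vehicle embryos (adjusted p = 0.000106) in the authors' deposited tables. Its paralog TXNL4B had -0.40 in nicotine embryos (adjusted p = 0.112) and -0.22 in vehicle embryos (adjusted p = 0.418) in the authors' deposited tables. TXNDC9, known for regulating the folding of tubulin and actin by the chaperonin CCT, fell by 0.32 in nicotine embryos (adjusted p = 0.005) and fell by 0.49 in vehicle embryos (adjusted p = 3.22e-06) in the authors' deposited tables. TXNDC5 had -0.11 in nicotine embryos (adjusted p = 0.246) and fell by 0.27 in vehicle embryos (adjusted p = 0.000855) in the authors' deposited tables. TXN2 itself was called in neither, with -0.06 in nicotine embryos (adjusted p = 0.778) and 0.27 in vehicle embryos (adjusted p = 0.0654) in the authors' deposited tables.

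**Figure D3:**
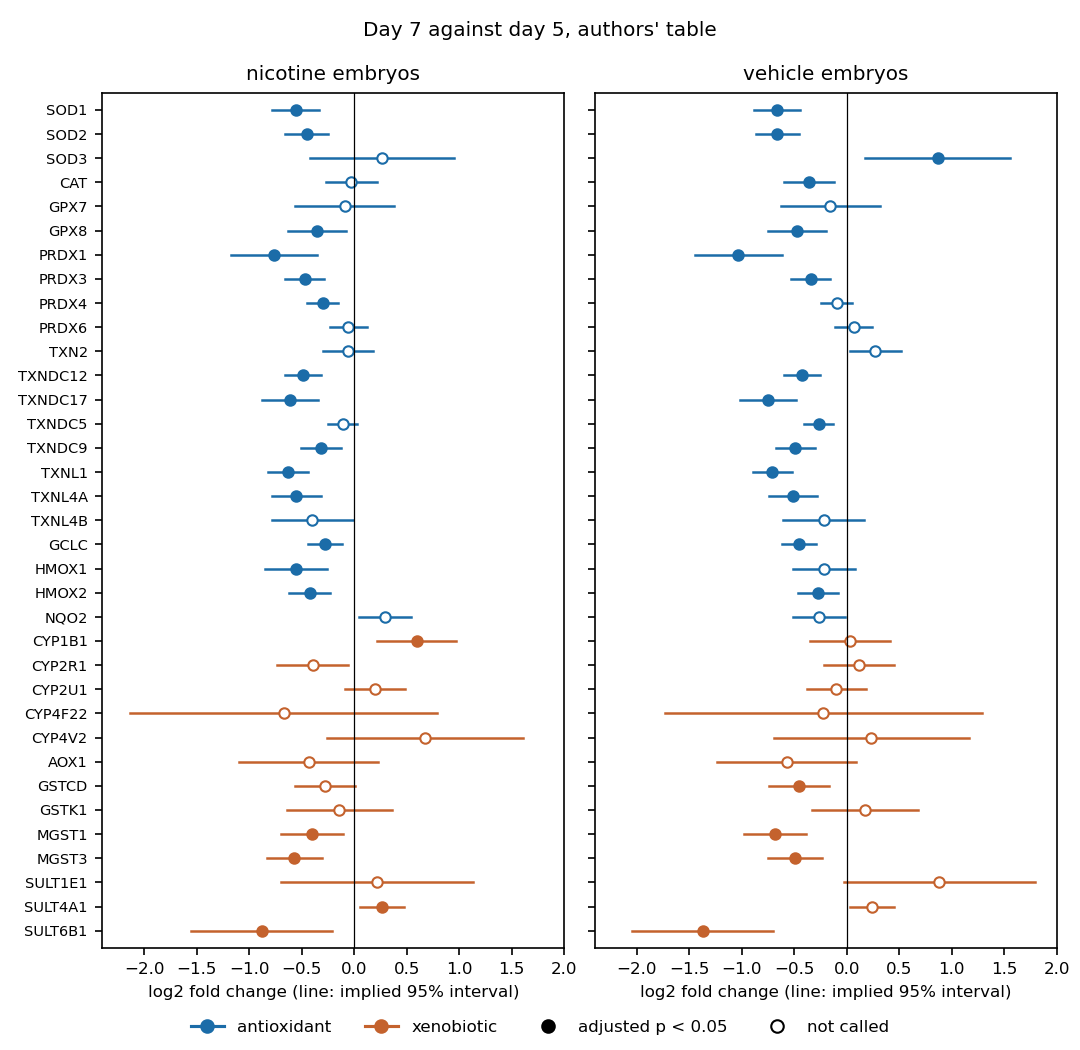
Authors' log2 fold change of day 7 against day 5 in nicotine embryos (left) and vehicle embryos (right) for the same 35 enzyme genes, with intervals computed from the authors' p; filled points have an adjusted p under 0.05. Most filled points of the antioxidant class lie left of 0 in both panels, with PRDX1 farthest among them, and SOD3 is the filled point to the right in vehicle embryos.

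The genes of glutathione synthesis and heme breakdown were below 0 in both treatments, and the quinone reductase NQO2 was called in neither. GCLC fell by 0.28 in nicotine embryos (interval -0.44 to -0.12, adjusted p = 0.00441) and fell by 0.46 in vehicle embryos (interval -0.62 to -0.29, adjusted p = 6.28e-07) in the authors' deposited tables. HMOX2, the constitutive heme oxygenase, fell by 0.43 in nicotine embryos (adjusted p = 0.000124) and fell by 0.28 in vehicle embryos (adjusted p = 0.0159) in the authors' deposited tables. HMOX1 fell by 0.55 in nicotine embryos (interval -0.85 to -0.26, adjusted p = 0.00151) and had -0.22 in vehicle embryos (interval -0.51 to 0.08, adjusted p = 0.276) in the authors' deposited tables. The difference between treatments for HMOX1 was -0.34 (p = 0.113, adjusted p = 0.363) in the authors' deposited table, so it was not shown to differ. NQO2 had opposite signs, 0.30 in nicotine embryos (adjusted p = 0.0592) and -0.27 in vehicle embryos (adjusted p = 0.0836) in the authors' deposited tables, and passed in neither.

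Among the conjugating enzymes of the xenobiotic class, the membrane glutathione transferases MGST1 and MGST3 fell in both treatments. MGST3 fell by 0.57 in nicotine embryos (interval -0.83 to -0.31, adjusted p = 0.000146) and fell by 0.49 in vehicle embryos (interval -0.75 to -0.23, adjusted p = 0.00101) in the authors' deposited tables. MGST1 fell by 0.40 in nicotine embryos (adjusted p = 0.0276) and fell by 0.68 in vehicle embryos (adjusted p = 4.25e-05) in the authors' deposited tables. Both enzymes are known for glutathione peroxidase activity as well as conjugation. GSTCD, a protein with a glutathione transferase domain, had -0.28 in nicotine embryos (adjusted p = 0.135) and fell by 0.46 in vehicle embryos (adjusted p = 0.00619) in the authors' deposited tables. GSTK1 had -0.14 in nicotine and 0.17 in vehicle embryos in the authors' deposited tables and was called in neither.

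Sulfotransferases did not move together. SULT6B1 fell by 0.88 in nicotine embryos (interval -1.56 to -0.21, adjusted p = 0.0349) and fell by 1.37 in vehicle embryos (interval -2.05 to -0.70, adjusted p = 0.000369) in the authors' deposited tables. SULT4A1, a brain-enriched member of the family, rose by 0.26 in nicotine embryos (adjusted p = 0.0466) and had 0.24 in vehicle embryos (adjusted p = 0.0632) in the authors' deposited tables. The 2 values are nearly the same and lie on either side of the threshold. SULT1E1 had 0.22 in nicotine embryos (interval -0.69 to 1.13) and 0.88 in vehicle embryos (interval -0.03 to 1.79) in the authors' deposited tables.

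Only 1 of the oxidising enzymes was called. CYP1B1 rose by 0.59 in nicotine embryos (interval 0.22 to 0.97, adjusted p = 0.00937) and had 0.03 in vehicle embryos (interval -0.35 to 0.41, adjusted p = 0.931) in the authors' deposited tables. Its difference between treatments did not pass, as given above. CYP2R1 had -0.40 in nicotine embryos (adjusted p = 0.0667) and 0.12 in vehicle embryos (adjusted p = 0.637) in the authors' deposited tables. AOX1 had -0.44 in nicotine embryos (interval -1.10 to 0.23) and -0.57 in vehicle embryos (interval -1.23 to 0.09) in the authors' deposited tables. CYP2U1 had 0.20 in nicotine and -0.10 in vehicle embryos in the authors' deposited tables.

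Some markers of other cells in the dissected piece were also called between the days. Over all rows with an adjusted p, 15.3% fell and 15.9% rose in nicotine embryos, and 18.7% fell and 18.1% rose in vehicle embryos. A single call in a short marker list is therefore near the background. Red blood cells are rich in antioxidant enzymes, and of 17 erythroid markers 5 were listed, of which 1 fell in each treatment. That gene, the embryonic globin HBZ, fell by 0.78 in nicotine embryos (adjusted p = 0.00155) and fell by 0.69 in vehicle embryos (adjusted p = 0.00532) in the authors' deposited tables. Over the 5 genes the median log2 fold change was -0.48 with 4 below 0 in nicotine embryos, and 0.00 with 2 below 0 in vehicle embryos, in the authors' deposited tables. The only erythroid marker with a matrix row, GFI1B, ran from 0.509 to 1.38 CPM in nicotine at day 7 and 0.663 to 1.52 in nicotine at day 5, and from 0.806 to 1.63 in vehicle at day 7 and 0.690 to 1.84 in vehicle at day 5.

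Of 14 listed hepatocyte markers, 8 had an adjusted p in nicotine embryos, and of these 2 fell and 0 rose. In vehicle embryos 12 had an adjusted p, and of these 4 fell and 1 rose. The medians over all 14 markers, with or without an adjusted p, were -1.30 in nicotine embryos and -0.57 in vehicle embryos in the authors' deposited tables. They include markers with very few counts, so they are no measure of the size of change. The 9 of them with a matrix row summed to 1.90 to 3.53 CPM in nicotine at day 7 and 1.80 to 8.19 in nicotine at day 5, and to 1.88 to 3.89 in vehicle at day 7 and 2.37 to 3.58 in vehicle at day 5, so these ranges overlap. Among these 9, TAT, PROC, HNF4A, F9, APOA4 and HGFAC were near the floor, with group medians of 0 to 0.077 CPM. Fold changes of such genes rest on few counts. The other genes in the sum moved in different directions between the days. APOH ran from 0.376 to 0.873 CPM in vehicle at day 7 and 1.015 to 1.97 in vehicle at day 5. Its nicotine medians were 0.554 at day 7 and 1.53 at day 5. ALB medians were higher at day 7, at 1.42 against 0.634 CPM in nicotine and 1.12 against 0.691 in vehicle embryos. SERPINC1 overlapped between the days in both treatments. Of 4 listed epidermis markers, 3 fell in nicotine embryos (median -0.87) and 1 fell in vehicle embryos (median -0.24) in the authors' deposited tables. The 1 with a matrix row, ESRP1, was at 0.806 to 2.07 CPM in nicotine at day 7 and 2.01 to 3.70 in nicotine at day 5, and at 1.91 to 3.51 in vehicle at day 7 and 2.52 to 3.98 in vehicle at day 5. Of 7 listed macrophage markers, 1 rose and 0 fell in nicotine embryos (median 0.23) and 2 fell and 0 rose in vehicle embryos (median -0.36) in the authors' deposited tables. The 3 with a matrix row summed to 9.43 to 10.3 CPM in nicotine at day 7 and 5.40 to 10.8 in nicotine at day 5, and to 6.28 to 9.50 in vehicle at day 7 and 9.99 to 13.6 in vehicle at day 5. Of 5 listed endothelium markers, 1 rose and 0 fell in nicotine embryos, and 1 rose and 1 fell in vehicle embryos in the authors' deposited tables. Of 3 listed muscle markers, 1 rose and 0 fell in nicotine embryos, and 1 rose and 1 fell in vehicle embryos in the authors' deposited tables. Of 5 listed cartilage and mesenchyme markers, 1 rose in nicotine embryos and 4 rose in vehicle embryos in the authors' deposited tables. Of 7 listed neural markers, 1 rose and 2 fell in nicotine embryos, and 2 rose and 2 fell in vehicle embryos in the authors' deposited tables. With nicotine at day 7, 2 of 14 hepatocyte markers were called higher and 3 lower, and 1 of 4 epidermis markers lower, where 0.395% of all rows were called. Most hepatocyte markers with a matrix row were near 0 CPM, as given above, and the other listed ones have no values per library. Whether these calls reflect hepatocytes was not tested. At day 5, 1 of 4 macrophage markers with an adjusted p was lower and 1 of 6 neural markers higher, where 2.72% of all rows were called. The other lists had no call with nicotine on either day. No marker with a matrix row was at 0 in all 16 libraries, the cartilage and mesenchyme, endothelium and muscle lists have no row, and the part of these cells in the enzyme values was not tested.

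Neighbouring pathway genes were called in both directions between the days and not at all with nicotine. Of 87 genes for regulators, glutathione and NADPH supply, electron donors, redox repair, transporters and other xenobiotic enzymes, 47 were listed and 0 were called in either nicotine table. All 47 had an adjusted p at day 7, and 40 had one at day 5. These counts of 0 are near the background, as 0.395% of all rows with an adjusted p were called at day 7 and 2.72% at day 5. Between the days, 13 of 46 with an adjusted p fell and 6 rose in nicotine embryos, and 16 fell and 4 rose in vehicle embryos, in the authors' deposited tables. Over all rows with an adjusted p, 15.3% fell and 15.9% rose in nicotine embryos, and 18.7% fell and 18.1% rose in vehicle embryos. The median log2 fold change over the 47 was -0.22 in nicotine embryos and -0.21 in vehicle embryos in the authors' deposited tables.

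Both listed enzymes of the non-oxidative branch of the pentose phosphate pathway, which is tied to NADPH supply, fell. TKT, the transketolase, fell by 0.66 in nicotine embryos (adjusted p = 2.63e-11) and fell by 0.70 in vehicle embryos (adjusted p = 1.23e-12) in the authors' deposited tables. TALDO1, the transaldolase, fell by 0.64 in nicotine embryos (adjusted p = 6.34e-13) and fell by 0.63 in vehicle embryos (adjusted p = 8.74e-13) in the authors' deposited tables. In the redox repair list, 6 of 11 fell in nicotine embryos and 7 of 11 in vehicle embryos in the authors' deposited tables, where 15.3% and 18.7% of all rows fell. The genes of this list that fell include GLRX5, a mitochondrial glutaredoxin of iron-sulfur cluster assembly, which fell by 0.53 in nicotine embryos (adjusted p = 3.19e-11), and BLVRA, biliverdin reductase, which fell by 0.63 in vehicle embryos (adjusted p = 0.017) in the authors' deposited tables.

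Among other xenobiotic enzymes, ADH5, which breaks down S-nitrosoglutathione and formaldehyde, fell by 0.58 in nicotine embryos (adjusted p = 6.87e-06) and fell by 0.68 in vehicle embryos (adjusted p = 5.04e-08) in the authors' deposited tables. CBR4, a mitochondrial carbonyl reductase, fell by 0.62 in nicotine embryos (adjusted p = 0.000975) and fell by 0.73 in vehicle embryos (adjusted p = 5.91e-05) in the authors' deposited tables. ALDH1A1, a retinal dehydrogenase, fell by 3.64 in nicotine embryos (adjusted p = 0.0301) and fell by 4.99 in vehicle embryos (adjusted p = 0.00175) in the authors' deposited tables. Its level in the matrix was low, at 0 to 0.146 CPM in nicotine at day 7 and 0.123 to 2.04 in nicotine at day 5, and 0 to 0.321 in vehicle at day 7 and 0.072 to 8.85 in vehicle at day 5. The carboxylesterase CES1 rose by 0.51 in nicotine embryos (adjusted p = 0.000335) in the authors' deposited table.

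Genes that rose were found among regulators, transporters and a glutathione-degrading family. GGT7, a gamma-glutamyltransferase family member, rose by 1.77 in nicotine embryos (adjusted p = 3.88e-10) and 1.77 in vehicle embryos (adjusted p = 3.23e-10) in the authors' deposited tables. KEAP1, the inhibitor of NRF2, had 0.15 in nicotine embryos (adjusted p = 0.607) and rose by 0.52 in vehicle embryos (adjusted p = 0.0201) in the authors' deposited tables. ARNT2, a neural partner of the aryl hydrocarbon receptor family, rose by 0.51 in nicotine embryos (adjusted p = 1.59e-05) and 0.27 in vehicle embryos (adjusted p = 0.0297) in the authors' deposited tables. The export pump ABCC5 rose by 0.40 in nicotine embryos (adjusted p = 0.0108) and 0.39 in vehicle embryos (adjusted p = 0.0121) in the authors' deposited tables. ABCC3 rose by 0.33 (adjusted p = 0.0232) and CYB5R3, an electron donor of cytochrome b5, by 0.29 (adjusted p = 0.00745) in nicotine embryos in the authors' deposited tables. For the difference between treatments, 0 of the 40 pathway genes with an adjusted p were called in the authors' deposited table, where 2.25% of all such rows were called. Pathway genes given above for 1 treatment alone were thus not shown to differ between treatments.

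The 4 genes with values per library are all xenobiotic enzymes of low abundance. Their counts were tested with edgeR's quasi-likelihood test in a single fit over 18394 loci, which MGST2 did not enter because its counts were too few. CYP4V2, a fatty acid hydroxylase, was the most abundant and was present in every library. It had 1.53, 2.33, 0.952 and 1.61 CPM in nicotine embryos at day 7 and 2.41, 1.3, 1.48 and 1.04 CPM in vehicle embryos at day 7. It had 0.82, 1.13, 1.47 and 0.828 CPM in nicotine embryos at day 5 and 0.717, 0.759, 1.33 and 2.6 CPM in vehicle embryos at day 5. The means at day 7 were 1.60 ± 0.563 CPM in nicotine and 1.56 ± 0.593 CPM in vehicle embryos, and at day 5 they were 1.06 ± 0.307 CPM in nicotine and 1.35 ± 0.878 CPM in vehicle embryos (SD, n = 4 each). All 4 groups overlap.

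CYP4F22, the hydroxylase of very long fatty acids in skin lipids, was lower still. It had 0.219, 0.581, 0.181 and 0.212 CPM in nicotine embryos at day 7 and 0.441, 0.446, 0 and 0.125 CPM in vehicle embryos at day 7. It had 0.451, 0.564, 0.237 and 0.566 CPM in nicotine embryos at day 5 and 0.224, 0.217, 0.321 and 0.325 CPM in vehicle embryos at day 5. The groups overlap on both days, and on both days the highest library was a nicotine embryo. Neither CYP4 gene was called by edgeR or in the authors' deposited tables in any of the 5 comparisons. The shares of all tested loci that edgeR called were 0.0% for nicotine at each day and for the difference between days, 29.6% for day in nicotine embryos and 37.2% for day in vehicle embryos. For nicotine at day 7, nicotine at day 5 and the difference, edgeR found 858, 2747 and 2521 loci with an unadjusted p under 0.05, and DESeq2 on the same counts called 32, 267 and 232. MGST2, a membrane glutathione transferase, was at 0 to 7 counts per library and was called in none of the authors' deposited tables.

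**Figure D4:**
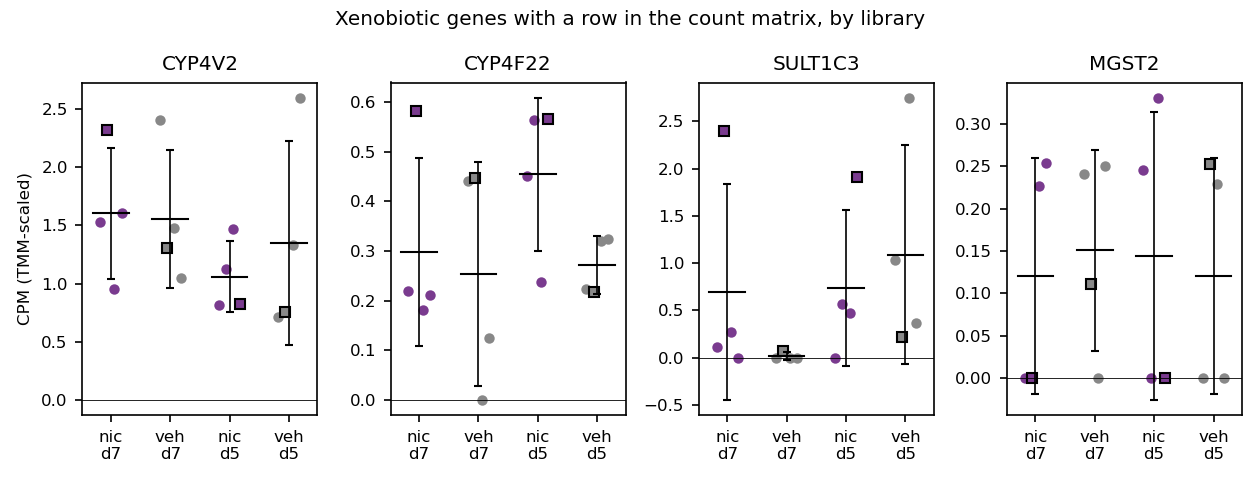
CPM per library of CYP4V2, CYP4F22, SULT1C3 and MGST2 in nicotine at day 7, vehicle at day 7, nicotine at day 5 and vehicle at day 5 (left to right in each panel). Points are libraries, lines group means and bars SD (n = 4); black-edged squares mark the 4 libraries that lack 57 loci. SULT1C3 is near 0 in all vehicle libraries of day 7, and 1 square stands at 2.40 CPM in nicotine at day 7.

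SULT1C3, a cytosolic sulfotransferase known in humans from phenolic substrates, was all but absent from vehicle embryos at day 7 and variable elsewhere. Its counts by library were 3, 66, 6 and 0 in nicotine embryos at day 7 and 0, 2, 0 and 0 in vehicle embryos at day 7. At day 5 they were 0, 16, 10 and 44 in nicotine embryos and 23, 6, 60 and 9 in vehicle embryos. In vehicle embryos the libraries of day 7 all lay below those of day 5, while in nicotine embryos the days overlapped. edgeR called the fall in vehicle embryos (adjusted p = 0.022), the only call among the 3 enzyme loci tested, where 19.6% of tested loci fell. Summed over libraries it had 2 counts in vehicle at day 7 against 98 in vehicle at day 5, a depth-scaled ratio of 0.0199 (exact interval 0.00237 to 0.0736, counting error only). The call was lost without vehicle replicate 3 of day 5 (adjusted p = 0.0726) and without vehicle replicate 1, 3 or 4 of day 7 (0.0571, 0.0577 and 0.0578). The authors' deposited tables had -0.76 in nicotine embryos (adjusted p = 0.734) and called it in vehicle embryos, with a fitted log2 fold change of -6.95 that is no bound (adjusted p = 5.88e-05).

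Between nicotine and vehicle at day 7 the value of SULT1C3 rested mainly on 1 embryo. There were 75 counts in nicotine against 2 in vehicle embryos, a depth-scaled ratio of 38.3 (exact interval 10.2 to 322, counting error only), and without replicate 2 of nicotine it was 9 against 2 counts and 6.34 (1.31 to 60.3). That replicate is 1 of the 4 libraries lacking 57 loci, as is the vehicle library that held both vehicle counts. edgeR gave p = 0.0136 and an adjusted p of 1, and the authors' deposited table gave a log2 fold change of 4.50 (p = 0.00442, adjusted p = 0.411). For the difference between days edgeR gave an adjusted p of 0.320. The groups of nicotine and vehicle at day 7 overlap at 0, so no difference was shown.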

How the data were processed

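Per the labels, RNA came from 16 embryos, 1 library each. The authors deposited whole-number read counts per locus, not normalised, and 5 tables of their own comparisons with a log2 fold change, the same as a linear ratio (fold), a p-value and its adjusted form; the linear fold was not printed. Per the submitters' processing notes, the tools included DESeq2, StringTie 1.3.3b, Bowtie2 2.3.2, HISAT2 2.0.5, Trim Galore 0.4.4 and FastQC 0.11.5, with no roles given. Not given in the sources used here are the build, annotation and strandedness. Enzyme genes with close paralogs, or with an overlapping or antisense gene, are therefore uncertain, and no coordinates or sequences are printed.

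An adjusted p of exactly 1 in a table was read as no adjusted value. Only loci with a gene identifier can be matched to a symbol, 8685 of 26943, holding 0.334% of counts. For the 4 matched enzymes, the authors' 20 fold changes lay within 0.002 of DESeq2 with a term for the 4 libraries lacking loci, and up to 1.12 away without it (log2). The difference table equals the gap between both nicotine tables and its implied variances equal their sums (ratio 1.0). This was checked with the implied standard errors that also give the intervals. These intervals were chosen after the data were seen.

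The test on counts was edgeR's quasi-likelihood test (edgeR 4.0.16, R 4.3.3; filterByExpr, TMM) with Benjamini-Hochberg adjustment and a threshold of 0.05, in 1 fit of 4 group means, 18394 loci; CPM uses TMM library sizes. DESeq2 1.42.0 was the alternative. The edgeR steps were also run on simulated counts. The changed loci there were more abundant than SULT1C3, CYP4F22 and MGST2, and the authors' values had no part in it, so it does not bear on them. Library totals set the precision, and exact intervals cover counting error only. The p-values cover the spread between embryos labelled as biological replicates.

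The enzymes and all gene lists were chosen with earlier results of these data known. Values are given for called enzymes (up to 12 per direction by size), the enzyme with the smallest p in each family and nicotine table, enzymes with a tested matrix row, and up to 6 pathway genes per direction; other enzymes were added so that all are accounted for. Alternatives were other thresholds, class borders, normalisations, filters, tools, terms and left-out libraries. Replicate numbers are shared by the groups, but the labels do not say that a number marks a shared batch.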

Additional observations from a re-analysis of the deposited data

Results flagged for a closer look

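In 3 of 16 groups of 4 libraries (4 genes in 4 groups) 1 library stood far from the others, beyond Dixon's critical value for its gap over the group's range. That value is made for normally distributed data, which these low counts are not, so no chance rate is given. Where all other libraries are at 0, the gap equals the range whatever the count. SULT1C3 in nicotine at day 7 was 2.40 CPM in replicate 2, with the nearest other library at 0.272 CPM. SULT1C3 in vehicle at day 7 was 0.0744 CPM in replicate 2, with the other libraries at 0, which is a matter of 2 counts. CYP4F22 in nicotine at day 7 was 0.581 CPM in replicate 2, with the nearest other library at 0.219 CPM. All 3 values belong to libraries among the 4 that lack 57 loci, and the part of that split in these single values was not tested. With a term for the split, edgeR gave SULT1C3 a log2 fold change of -6.66 for day in vehicle embryos (adjusted p = 0.0054). Without the term it was -5.51 (adjusted p = 0.022).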

How the results depend on the processing

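Over 42 results and 251 alternatives, 216 were labelled the same, 4 weaker, 31 moved and 0 reversed. Counts were the same within a factor of 1.5, medians within the median implied standard error and levels within the SD, whatever the sign. Only the SULT1C3 fold change could be labelled weaker or reversed. Without the thioredoxin-like genes the antioxidant median with nicotine changed sign, from -0.01 to 0.07 at day 5 and from 0.02 to -0.03 at day 7, and was labelled the same. Requiring a log2 fold change of at least 0.5 left 9 enzymes called between days in nicotine embryos (of 19) and 10 in vehicle embryos (of 20). An adjusted p under 0.1 gave 1 enzyme, NQO2, in the test of whether nicotine acted differently on each day. Counting NQO2 as xenobiotic and the glutathione transferases as antioxidant moved the xenobiotic median between days in nicotine embryos to 0.20, against -0.28. SULT1C3 was past the threshold for day in vehicle embryos in 10 of 14 alternatives (adjusted p 5.08e-05 to 0.0726), so the count of enzyme loci called there ran from 0 to 1 with 1 library left out; it was 0 on the libraries of the compared groups only, where the locus was not among those tested. Over all loci, edgeR called 0 for nicotine at day 7 and at day 5 and for the difference, against 32, 267 and 232 with DESeq2, and 183, 299 and 267 with DESeq2 and a term for the libraries lacking loci, an alternative chosen after seeing the data. On the compared groups only, edgeR called 5 at day 7; leaving out 1 library gave 0 to 1 at day 7, 0 to 3 at day 5 and 0 to 5 for the difference. DESeq2 gave no adjusted p for the enzyme loci at day 5 and for the difference.

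Most same-numbered libraries did not deviate together (correlations -0.239 to 0.355), and 15 of 48 correlated best with their own number, so the numbers are not taken as pairs. The highest values, 0.342 (nicotine and vehicle at day 7) and 0.355 (vehicle at day 7 and day 5), belong to replicate 2, where both libraries lack 57 loci. The lowest, -0.239 and -0.231 at day 5 (replicates 2 and 4), each set such a library against one that does not lack them. Replicates 2 and 4 of nicotine at day 7 and day 5 do so too, with correlations of -0.0497 and -0.0616. The replicate block changed no enzyme call (SULT1C3 adjusted p = 0.024), and gave 6478 loci for day in vehicle embryos (6844 without it), 5005 in nicotine embryos (5451), and 1 each for nicotine at day 5 and the difference. Most enzymes have no per-library values, so no alternative reaches them beyond thresholds and class borders; the low counts of the 4 matched genes limit their tests.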
